A study of Mus musculus with 6 samples.

Results

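The cell cycle and DNA replication genes described here are 53 mouse genes listed by symbol, namely cyclins, cyclin-dependent kinases (CDKs), CDK inhibitors, E2F and pocket proteins, replication factors and genes of mitosis. They were picked by the Entrez gene identifier of each row of the count files, and all 53 were found among 27179 identifiers and were among the 12418 genes tested. The picking used symbols and no measured value, but the list was drawn up with earlier results of these data known. They were followed across 6 RNA-seq libraries of A20, a mouse B cell lymphoma line labelled BALB/C. Wild-type A20 cells (n = 2) were not transduced. Control sgRNA cells (n = 2) carried the TETact-v3 system with a non-targeting sgRNA, and Cd4 sgRNA cells (n = 2) carried the same system with an sgRNA against the Cd4 promoter. TETact-v3 brings the catalytic domain of TET1, a DNA demethylating enzyme, to dCas9 through SunTag epitopes, and the p65-hsf1 activator through MS2 aptamers in the sgRNA. The system was delivered by lentivirus and the transduced cells were assayed a week after the sgRNA was added. A comparison with wild type therefore spans transduction, all parts of the system and the sgRNA, which cannot be told apart here. The study used the control sgRNA comparison to ask how specific the activation of Cd4 was. The labels give 2 biological replicates a group, all from a single cell line.

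Cells commit to division when D-type cyclins with CDK4 or CDK6, followed by cyclin E with CDK2, phosphorylate the retinoblastoma family of pocket proteins and release E2F factors. E2F targets then license origins with the MCM helicase, supply nucleotides and replicate DNA, whereas genes of G2 and mitosis are switched on later through MYB-MuvB and FOXM1 complexes at CHR elements. CDK inhibitors such as p21, p27, p16 and p18 hold these kinases back. Lymphoma lines such as A20 proliferate without an external mitogen. In bulk RNA, a change in the share of cells in a phase and a change in the RNA per cell cannot be told apart.

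Values are counts scaled to library size (CPM, with TMM factors), from library totals between 23194920 counts (wild-type replicate 2) and 121623410 counts (control sgRNA replicate 1). A count of 3, taken as the floor, corresponded to 0.0270 to 0.140 CPM. Cd4 itself was counted 37 and 17 times in wild-type, 127 and 124 times in control sgRNA and 30959 and 40422 times in Cd4 sgRNA libraries. The control sgRNA libraries differed from each other more than the other pairs did. The median absolute log2 difference between replicates over all tested genes was 0.26 in control sgRNA, 0.08 in wild-type and 0.08 in Cd4 sgRNA cells, and over the 53 genes it was 0.24, 0.05 and 0.05. Mitochondrial genes took 2.65% and 2.69% of the counts in wild-type, 5.96% and 6.90% in Cd4 sgRNA and 6.63% and 11.5% in control sgRNA libraries. Of 10 B cell markers all were detected, with a summed level of 7750 and 7804 CPM in wild-type, 4768 and 4221 CPM in Cd4 sgRNA, and 4962 and 7698 CPM in control sgRNA libraries. The summed markers of T cells (9 genes) stayed at 9.43 CPM or less, those of myeloid cells (7 genes) at 7.0 CPM or less and those of fibroblasts (6 genes) at 0.531 CPM or less. The 5 plasma cell markers summed to 1376 and 1356 CPM in wild-type, 1071 and 1034 CPM in Cd4 sgRNA and 1042 and 1478 CPM in control sgRNA libraries, a sum made up mostly of Jchain and Xbp1. Irf4, a factor of plasma cell differentiation, was at 33.3 and 34.5 CPM in wild-type, 114 and 104 CPM in Cd4 sgRNA and 93.9 and 145 CPM in control sgRNA libraries. Prdm1 and Sdc1 were also above wild type in all 4 transduced libraries, whereas Xbp1 was below wild type in all 4. Xbp1 was at 326 and 326 CPM in wild-type, 226 and 236 CPM in Cd4 sgRNA and 205 and 224 CPM in control sgRNA libraries. Jchain was at 997 and 976 CPM in wild-type, 692 and 654 CPM in Cd4 sgRNA and 705 and 1049 CPM in control sgRNA libraries. The median of the 5 markers, as log2 relative to the wild-type mean, was 0.90 and 0.95 with Cd4 sgRNA. With control sgRNA this median was 0.77 and 0.69. Of the 5, 3 were called higher and 1 lower in control sgRNA cells and 2 higher and 1 lower in Cd4 sgRNA cells (edgeR, adjusted p under 0.05). The part of these differences in the results that follow was not tested. Counts of called genes among the 53 are given with and without each control sgRNA library. The same holds for the phase medians of control sgRNA against wild type. It also holds for a called fold change that moved by over 1.5 times without one of these libraries.

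Per kilobase of counted length, the most abundant of the 53 genes in wild-type A20 were Ccnd3 (cyclin D3, 223 CPM per kb), Cdk4 (222 CPM per kb), Cdc25b (a phosphatase that activates CDKs, 212 CPM per kb), Mcm6 (206 CPM per kb) and Mcm5 (204 CPM per kb). Of these neighbours in the order, Ccnd3 and Cdk4 differed by less than their SD of 8.54 and 6.17 CPM per kb. Ccnd3 overlaps Bysl and has a named pseudogene, and Cdk4 overlaps Tspan31, so reads could be shared. The median over the 53 genes was 35.8 CPM per kb. At the low end were Cdkn1a, the gene of p21, with 3.32 ± 0.30 CPM per kb (SD, n = 2), and Ccnd2, the gene of cyclin D2, which was counted 0 and 1 times. Of the D-type cyclins among the members, Ccnd3 was thus the one detected in wild-type cells, with 491 and 518 CPM.

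**Figure D1:**
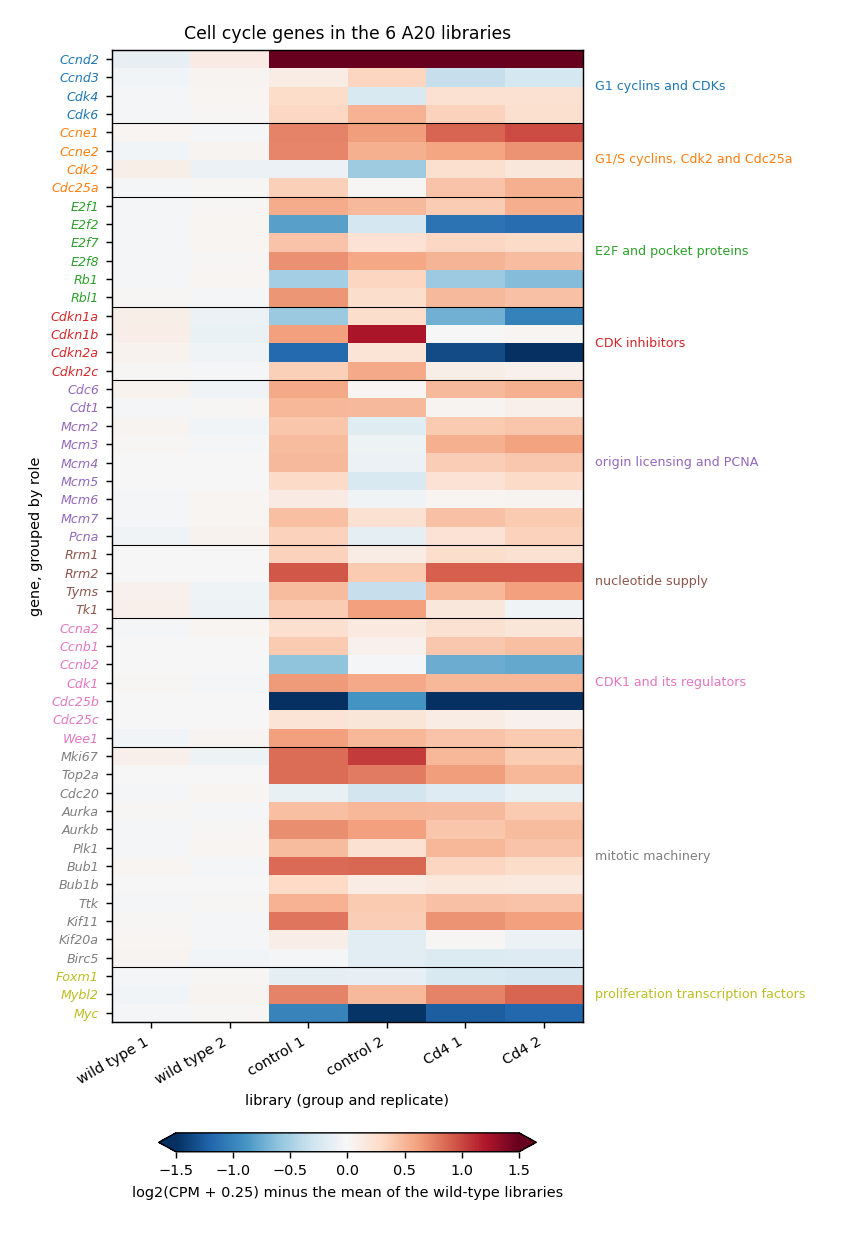
Level of each of the 53 genes (rows, grouped and coloured by role) in the 6 libraries (columns), as log2(CPM + 0.25) minus the mean of the wild-type libraries, with the colour scale ending at 1.5. Most rows are red in the 4 transduced libraries, Myc and Cdc25b are blue in all 4, and the origin licensing rows are near white in control sgRNA replicate 2.

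Promoter sequences were searched because these genes are known to be regulated in 2 waves through different DNA elements. RefSeq (GRCm38.p6) gave a window of 300 bases, from 250 before to 50 after the transcription start, for 42 of the 53 genes, 48 windows in all. No window was at hand for Ccnd2, Ccne2, Rb1, Mcm4, Ccna2, Cdc25c, Wee1, Aurkb, Kif20a, Foxm1 and Myc. The motifs, read on both strands, were E2F (TTTCGCGC, TTTGGCGC or TTTCCCGC), CHR (TTTGAA or TTCGAA) and the NF-Y box (CCAAT). Matches of 2 motifs overlapped in 1 of the 48 windows. An E2F motif was found in 11 of the 22 windows of S phase and G1/S genes (50.0%) and in 1 of the 14 windows of G2 and M genes (7.14%), beside 3.49% of the windows of all tested genes and 1.84% of all 32851 windows. A CHR motif was found in 12 of the 14 windows of G2 and M genes (85.7%) and in 4 of the 22 S phase windows (18.2%), beside 14.3% of the windows of tested genes and 19.2% of all windows. The NF-Y box was found in 13 G2 and M windows (92.9%) and 15 S phase windows (68.2%), beside 38.8% for tested genes and 37.4% of all windows. Genes in neither phase list had 12 windows, of which 1 held an E2F motif, 0 a CHR motif and 4 an NF-Y box. A match is a string of letters and not a shown binding site. The 2 phase lists were drawn from textbook knowledge of when each gene acts, in part learned through such motifs.

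**Figure D2:**
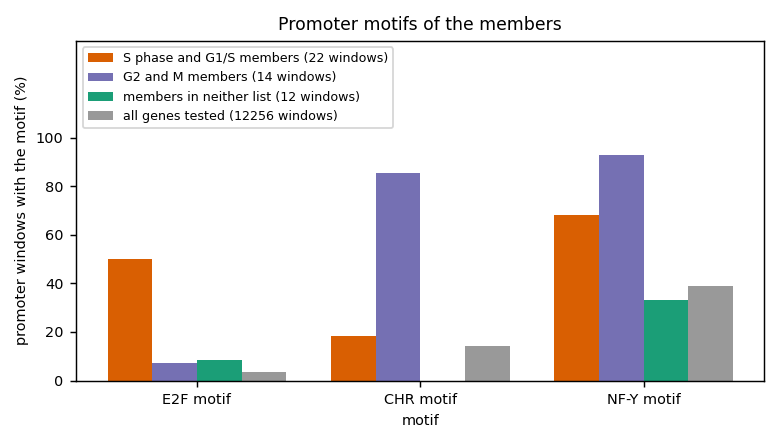
Share of promoter windows of 300 bases (vertical axis, percent) that hold an E2F, CHR or NF-Y motif, for the 2 phase lists, the members in neither list and all genes tested. E2F motifs stand out in the S phase and G1/S windows (50.0%) and CHR motifs in the G2 and M windows (85.7%).

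The first 2 windows, of licensing genes, show E2F elements, and the other 4, of G2 and M genes, show CHR and NF-Y elements, among them a promoter of a gene that was lower after transduction. The windows are Mcm3 at chr1:20820263-20820562, Mcm6 at chr1:128359656-128359955, Cdk1 at chr10:69352863-69353162, Top2a at chr11:99024140-99024439 and Bub1 at chr2:127831810-127832109, all on the minus strand, and Cdc25b at chr2:131186698-131186997 on the plus strand. Each is written 5′ to 3′ along the gene, and capitals mark the E2F, CHR and NF-Y matches. The reference is of another mouse strain than A20.
Mcm3: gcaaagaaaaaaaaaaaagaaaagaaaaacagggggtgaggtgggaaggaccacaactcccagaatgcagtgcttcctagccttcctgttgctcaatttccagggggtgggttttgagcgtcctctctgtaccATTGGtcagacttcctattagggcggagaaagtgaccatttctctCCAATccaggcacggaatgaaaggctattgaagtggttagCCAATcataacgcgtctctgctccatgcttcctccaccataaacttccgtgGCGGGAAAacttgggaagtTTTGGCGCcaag
Mcm6: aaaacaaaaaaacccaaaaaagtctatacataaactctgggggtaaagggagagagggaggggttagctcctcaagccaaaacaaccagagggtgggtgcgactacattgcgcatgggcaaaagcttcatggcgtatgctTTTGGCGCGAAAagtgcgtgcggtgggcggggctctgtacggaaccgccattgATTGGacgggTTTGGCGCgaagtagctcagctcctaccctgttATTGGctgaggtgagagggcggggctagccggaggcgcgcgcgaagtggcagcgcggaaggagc
Cdk1: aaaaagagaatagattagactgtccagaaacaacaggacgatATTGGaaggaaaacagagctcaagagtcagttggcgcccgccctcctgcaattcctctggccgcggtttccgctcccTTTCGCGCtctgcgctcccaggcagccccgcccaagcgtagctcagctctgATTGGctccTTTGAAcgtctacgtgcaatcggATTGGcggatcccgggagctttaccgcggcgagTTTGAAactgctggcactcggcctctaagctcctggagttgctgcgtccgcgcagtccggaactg
Top2a: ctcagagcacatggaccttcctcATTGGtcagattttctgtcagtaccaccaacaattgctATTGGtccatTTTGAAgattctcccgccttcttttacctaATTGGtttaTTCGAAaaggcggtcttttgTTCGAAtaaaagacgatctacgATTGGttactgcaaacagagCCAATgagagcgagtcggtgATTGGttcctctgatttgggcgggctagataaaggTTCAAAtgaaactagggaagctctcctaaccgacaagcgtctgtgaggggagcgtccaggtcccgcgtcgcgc
Bub1: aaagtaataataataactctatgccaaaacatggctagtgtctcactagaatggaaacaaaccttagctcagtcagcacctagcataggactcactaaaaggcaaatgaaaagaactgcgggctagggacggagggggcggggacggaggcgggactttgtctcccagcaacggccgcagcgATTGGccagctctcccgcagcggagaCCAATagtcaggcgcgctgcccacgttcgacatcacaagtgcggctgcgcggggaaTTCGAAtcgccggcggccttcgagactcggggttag
Cdc25b: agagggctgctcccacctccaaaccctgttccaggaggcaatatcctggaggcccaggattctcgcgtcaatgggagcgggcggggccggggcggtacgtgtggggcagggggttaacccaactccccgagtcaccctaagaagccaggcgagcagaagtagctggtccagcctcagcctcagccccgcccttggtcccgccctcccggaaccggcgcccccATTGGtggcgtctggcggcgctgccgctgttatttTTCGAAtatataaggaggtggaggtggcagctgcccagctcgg
Mcm3 holds 2 E2F matches and 3 NF-Y boxes, and Mcm6 holds 3 E2F matches, of which a pair overlaps, and 2 NF-Y boxes. Cdk1 holds 1 E2F match, 2 CHR matches and 3 NF-Y boxes. Top2a holds 4 CHR matches and 6 NF-Y boxes, the most of the 6 windows. Bub1 and Cdc25b each hold 1 CHR match, with 2 NF-Y boxes and 1 NF-Y box.

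Against wild-type A20, 24 of the 53 genes rose and 2 fell in control sgRNA cells (adjusted p under 0.05, edgeR quasi-likelihood, Benjamini-Hochberg over all 12418 genes). Of all tested genes, 14.5% were called higher and 13.5% lower in that comparison. In Cd4 sgRNA cells 19 of the 53 genes rose and 4 fell, where 9.85% of all tested genes were called higher and 10.7% lower. The 2 comparisons share the wild-type libraries, so their values are given side by side and are no check of each other. The median log2 fold change over the 53 genes was 0.23 in control sgRNA and 0.30 in Cd4 sgRNA cells, with medians over all tested genes of 0.00 in each. The values of the groups did not overlap, with the transduced libraries higher, for 31 of the 53 genes in control sgRNA cells (33.3% of all genes) and for 39 in Cd4 sgRNA cells (40.4%). They did not overlap with the transduced libraries lower for 6 genes (33.8% of all genes) and 11 genes (39.4%). The study's own method, voomLmFit, called 21 genes higher (12.4% of all genes) and 2 lower (12.7%) in control sgRNA cells and 17 higher (8.23%) and 4 lower (9.06%) in Cd4 sgRNA cells. DESeq2 called 25 higher (17.7%) and 3 lower (15.7%) in control sgRNA cells and 23 higher (14%) and 8 lower (14.6%) in Cd4 sgRNA cells. Of the genes called, Cdk6, E2f1, E2f8, Rbl1, Tk1, Top2a and Kif11 overlap other annotated genes, besides those named at their values.

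The spread behind these calls is shared by the 3 groups, of which the control sgRNA pair differed most. Without control sgRNA replicate 1 the counts were 32 higher and 9 lower for control sgRNA (33.0% and 31.2% of all genes) and 35 and 11 for Cd4 sgRNA cells (32.5% and 26.9%). Without control sgRNA replicate 2 they were 39 and 8 (30.4% and 29.5% of all genes), and 35 and 11 (30.7% and 29.0%). The counts over all genes thus rose in these fits as well. Where a wild-type library was left out, at most 1 of the 53 genes was called in each direction in either comparison, with at most 1.75% of all genes called in a direction. Where a Cd4 sgRNA library was left out, 0 members were called in the Cd4 sgRNA comparison (at most 0.921% of all genes in a direction) and 14 higher and 2 lower in the control sgRNA comparison (at most 6.41% and 5.64%). An exact permutation test of 2 libraries against 2 cannot give a p below 0.333, so the calls rest on the model across genes.

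**Figure D3:**
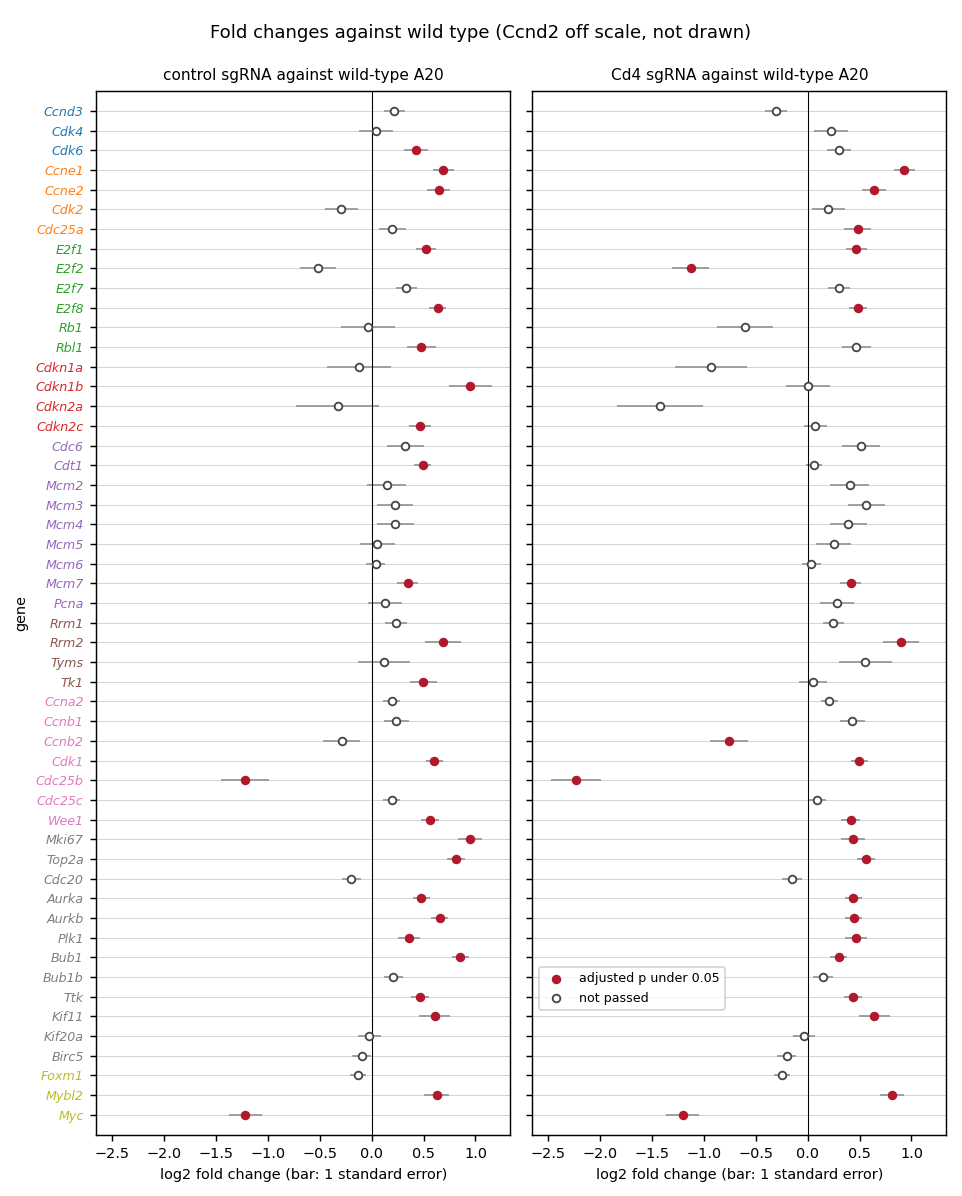
Log2 fold change with 1 standard error (horizontal axis) for 52 of the 53 genes (Ccnd2 is off scale) in control sgRNA (left) and Cd4 sgRNA cells (right) against wild-type A20. Filled points passed an adjusted p of 0.05, and those to the right of 0 run from 0.30 (Bub1, Cd4 sgRNA) to 0.95 (Cdkn1b and Mki67, control sgRNA), while Cdc25b and Myc lie at -1.22 and -1.22 on the left and at -2.23 and -1.21 on the right.

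Among the 4 G1 cyclins and CDKs, Ccnd2 was at or near 0 counts in wild type and was detected in all 4 transduced libraries. Its level was 0 and 0.0467 CPM in wild-type, 0.648 and 0.828 CPM in control sgRNA and 1.5 and 1.18 CPM in Cd4 sgRNA cells. With 1 count in the wild-type group, the ratio of CPM was 49.1 for control sgRNA (139 counts, 95% exact counting interval 8.68 to 1955) and 89.0 for Cd4 sgRNA cells (101 counts, 15.6 to 3549). The interval covers counting error only. It passed the test in both comparisons (adjusted p = 0.00946 and 0.00726, edgeR), but its level stayed below that of all the other 52 genes, and a lncRNA, 9330179D12Rik, overlaps it. Its calls were absent under a filter of a mean of at least 5 CPM, which removes the gene. Cdk6, a partner of D-type cyclins, rose in control sgRNA cells (log2 fold change 0.43 ± 0.11, SE, adjusted p = 0.0372, edgeR) and had a log2 fold change of 0.30 ± 0.12 in Cd4 sgRNA cells (adjusted p = 0.115, edgeR). Ccnd3 and Cdk4 did not pass in either comparison. Ccnd3 was at 544 and 630.4 CPM in control sgRNA and 398 and 419 CPM in Cd4 sgRNA cells, on opposite sides of wild type.

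The cyclin E genes rose in both transduced groups. Ccne1, on chr7:38097984-38107490, was at 21.6 and 20.8 CPM in wild-type, 35.6 and 32.8 CPM in control sgRNA and 38.9 and 42.2 CPM in Cd4 sgRNA cells, with no overlap between the groups. Its log2 fold change was 0.69 ± 0.10 (SE, adjusted p = 0.00654, edgeR) in control sgRNA and 0.93 ± 0.10 (adjusted p = 0.00429, edgeR) in Cd4 sgRNA cells. Ccne2 changed by 0.65 and 0.64 on the log2 scale (adjusted p = 0.0106 and 0.0158, edgeR). Ccne2 overlaps Ints8, whose reads could be counted with it, since no source used here says whether strand was used. Cdc25a, the phosphatase that activates CDK2, rose in Cd4 sgRNA cells (0.48 ± 0.13, adjusted p = 0.0482, edgeR) and had a log2 fold change of 0.20 ± 0.13 in control sgRNA cells (adjusted p = 0.287, edgeR). The Cdc25a call was lost with voomLmFit (adjusted p = 0.0575) and without the filter on low counts (0.0541). Cdk2 did not pass, with log2 fold changes of -0.30 in control sgRNA and 0.20 in Cd4 sgRNA cells.

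Of the 6 E2F and pocket protein genes, E2f1, an activator of S phase genes, and E2f8, a repressor in the same feedback loop, rose in both comparisons. E2f1 changed by 0.53 and 0.47 on the log2 scale (adjusted p = 0.0127 and 0.0240, edgeR) and E2f8 by 0.63 and 0.49 (adjusted p = 0.00514 and 0.0152, edgeR). E2f2, another activator, was at 125 and 130.5 CPM in wild-type, 72.6 and 106 CPM in control sgRNA and 58.9 and 57.9 CPM in Cd4 sgRNA cells. It fell by 1.13 on the log2 scale in Cd4 sgRNA cells (SE 0.18, adjusted p = 0.0117, edgeR), and the log2 fold change in control sgRNA cells was -0.52 ± 0.17 (adjusted p = 0.0725, edgeR). E2f1 and E2f2 stood on opposite sides of wild type in Cd4 sgRNA cells. Rbl1, the gene of the pocket protein p107, rose in control sgRNA cells (0.48 ± 0.14, adjusted p = 0.0486, edgeR) and had 0.47 ± 0.14 in Cd4 sgRNA cells (adjusted p = 0.0630, edgeR). The Rbl1 call was lost with voomLmFit (adjusted p = 0.0661) and without the filter on low counts (0.0541), and its value of 0.48 became 0.29 with control sgRNA replicate 1 left out and 0.66 with replicate 2 left out. E2f7 and Rb1 did not pass.

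Origin licensing and PCNA genes had a median above wild type in 3 of the 4 transduced libraries (0.37 and 0.40 in Cd4 sgRNA and 0.46 in control sgRNA replicate 1) and of -0.08 in control sgRNA replicate 2, on the log2 scale. The 6 genes Mcm2 to Mcm7, which make the replicative helicase, summed to 2593 and 2614 CPM in wild-type, 3295 and 2461 CPM in control sgRNA and 3190 and 3262 CPM in Cd4 sgRNA cells. Control sgRNA replicate 2 was the lowest of the 6 libraries in this sum. Mcm7 rose in both comparisons (0.35 and 0.42, adjusted p = 0.0490 and 0.0370, edgeR) but overlaps Ap4m1, and its call in control sgRNA cells was lost with voomLmFit (adjusted p = 0.0553), without the filter on low counts (0.0617) and without the annotation filter (0.0538). Cdt1, which loads the helicase, rose in control sgRNA cells (0.49 ± 0.08, adjusted p = 0.00842, edgeR) and differed by 0.06 ± 0.08 in Cd4 sgRNA cells. Mcm2 was at 401 and 380.0 CPM in wild-type, 521 and 344 CPM in control sgRNA and 514 and 521 CPM in Cd4 sgRNA cells. Its log2 fold change was 0.15 ± 0.19 in control sgRNA (adjusted p = 0.588, edgeR) and 0.41 ± 0.19 in Cd4 sgRNA cells (adjusted p = 0.171, edgeR). Without control sgRNA replicate 1 the first of these turned to -0.16 (adjusted p = 0.0240). Pcna, the clamp of the replicative polymerases, was at 226 and 241 CPM in wild-type, 298 and 212 CPM in control sgRNA and 272 and 297 CPM in Cd4 sgRNA cells, and did not pass. Pcna has named pseudogenes with which its reads could be shared. In all, 2 of the 9 licensing and PCNA genes were called higher in control sgRNA and 1 in Cd4 sgRNA cells (14.5% and 9.85% of all tested genes). All 9 fitted log2 fold changes were above 0 in each, but in control sgRNA cells this depended on replicate 1. Without it, Mcm2 (-0.16), Mcm3 (-0.06), Mcm4 (-0.06), Mcm5 (-0.20), Mcm6 (-0.035) and Pcna (-0.11) were below 0. Cdc6 (0.04), Cdt1 (0.51) and Mcm7 (0.25) stayed above 0.

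Of the nucleotide supply genes, Rrm2, the regulated subunit of ribonucleotide reductase, was at 120.2 and 122 CPM in wild-type, 230.4 and 158 CPM in control sgRNA and 226 and 225 CPM in Cd4 sgRNA cells. It rose by 0.69 ± 0.17 (adjusted p = 0.0330, edgeR) and 0.90 ± 0.17 (adjusted p = 0.0202, edgeR) on the log2 scale, the first value being 0.41 without control sgRNA replicate 1 and 0.93 without replicate 2. Tk1, thymidine kinase, rose in control sgRNA cells (0.50 ± 0.13, adjusted p = 0.0366, edgeR) and had 0.05 ± 0.13 in Cd4 sgRNA cells. Tyms, thymidylate synthase, was at 58.3 and 53.1 CPM in wild-type, 77.1 and 43.7 CPM in control sgRNA and 78.8 and 85.0 CPM in Cd4 sgRNA cells. It did not pass, and its control sgRNA libraries stood on opposite sides of wild type. Rrm1 did not pass either (0.23 and 0.25).

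CDK1 and its regulators split in direction. Cdk1, the kinase of mitotic entry on chr10:69335146-69352912, was at 123 and 119 CPM in wild-type, 188 and 179.7 CPM in control sgRNA and 171 and 171 CPM in Cd4 sgRNA cells. It rose by 0.60 ± 0.08 (adjusted p = 0.00486, edgeR) and 0.50 ± 0.08 (adjusted p = 0.0117, edgeR) on the log2 scale. Wee1, the kinase that inhibits CDK1, rose as well (0.56 and 0.41, adjusted p = 0.00815 and 0.0255, edgeR). Cdc25b, the phosphatase that opposes Wee1, on chr2:131186436-131198511, was at 665 and 669 CPM in wild-type, 215 and 359 CPM in control sgRNA and 149 and 135 CPM in Cd4 sgRNA cells. It fell by 1.22 (SE 0.23, adjusted p = 0.0139, edgeR) and fell by 2.23 (SE 0.24, adjusted p = 0.00424, edgeR) on the log2 scale, and all 4 transduced libraries were below both wild-type libraries. The mitotic cyclins differed from each other. Ccnb1 (cyclin B1) was at 102 and 102 CPM in wild-type, 134 and 107 CPM in control sgRNA and 136 and 139 CPM in Cd4 sgRNA cells, with log2 fold changes of 0.23 ± 0.12 and 0.43 ± 0.12 that did not pass (adjusted p = 0.189 and 0.0534, edgeR). Ccnb2 (cyclin B2) was at 94.5 and 94.4 CPM in wild-type, 62.2 and 92.5 CPM in control sgRNA and 56.5 and 55.5 CPM in Cd4 sgRNA cells. It fell by 0.75 in Cd4 sgRNA cells (SE 0.18, adjusted p = 0.0366, edgeR), and control sgRNA replicate 2 was close to wild type. Both cyclins have a named pseudogene. Ccna2 and Cdc25c did not pass.

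Of 12 genes of the mitotic machinery, 8 rose in control sgRNA and 8 in Cd4 sgRNA cells, and 0 fell. Beside this, 14.5% and 9.85% of all tested genes were called higher and 13.5% and 10.7% lower. Mki67, which coats mitotic chromosomes and is the usual proliferation marker, on chr7:135689784-135716450, was at 1321 and 1198 CPM in wild-type, 2248 and 2609 CPM in control sgRNA and 1771 and 1636 CPM in Cd4 sgRNA cells. Its log2 fold change was 0.95 ± 0.12 (adjusted p = 0.00412, edgeR) and 0.44 ± 0.11 (adjusted p = 0.0438, edgeR). The 3 groups did not overlap, with wild type lowest and control sgRNA highest. Top2a, the topoisomerase that untangles sister chromatids, was at 542 and 537 CPM in wild-type, 966 and 928 CPM in control sgRNA and 831 and 759.7 CPM in Cd4 sgRNA cells (0.81 ± 0.09 and 0.56 ± 0.09, adjusted p = 0.00294 and 0.0115, edgeR). Bub1, a spindle checkpoint kinase, was at 126 and 121 CPM in wild-type, 222 and 224 CPM in control sgRNA and 154 and 149.7 CPM in Cd4 sgRNA cells. It had the smallest adjusted p of the 53 genes in control sgRNA cells (0.86 ± 0.08, adjusted p = 0.00209, edgeR) and also rose in Cd4 sgRNA cells (0.30 ± 0.08, adjusted p = 0.0452, edgeR), a call that was lost with voomLmFit (adjusted p = 0.0516) and without the filter on low counts (0.067). Kif11, the motor that separates spindle poles, was at 175 and 169.8 CPM in wild-type, 302 and 223 CPM in control sgRNA and 275 and 264 CPM in Cd4 sgRNA cells (0.61 ± 0.15 and 0.64 ± 0.15, adjusted p = 0.0293 and 0.0312, edgeR). In control sgRNA cells the Kif11 value was 0.39 without replicate 1 and 0.81 without replicate 2. The mitotic kinases Aurka, Aurkb, Plk1 and Ttk rose in both comparisons, by 0.36 to 0.65 in control sgRNA and 0.44 to 0.47 in Cd4 sgRNA cells on the log2 scale. The Plk1 call in control sgRNA cells was lost with voomLmFit (adjusted p = 0.0568), without the filter on low counts (0.0618) and without the annotation filter (0.0537). Aurka overlaps Cstf1. Cdc20, the activator of the anaphase-promoting complex, Bub1b, Kif20a and Birc5 (survivin) did not pass, with log2 fold changes from -0.20 to 0.21.

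Of the proliferation transcription factors, Myc fell and Mybl2 rose in both comparisons, while Foxm1 did not pass (-0.13 and -0.24, adjusted p = 0.230 and 0.0718, edgeR). Myc, on chr15:61985341-61990361, was at 183 and 188 CPM in wild-type, 92.7 and 66.7 CPM in control sgRNA and 78.9 and 82.0 CPM in Cd4 sgRNA cells. It fell by 1.22 (SE 0.16, adjusted p = 0.00482, edgeR) and fell by 1.21 (SE 0.16, adjusted p = 0.00754, edgeR) on the log2 scale, and the transduced libraries did not overlap wild type. Mybl2, the B-Myb subunit of MYB-MuvB, was at 157 and 167 CPM in wild-type, 272 and 228 CPM in control sgRNA and 271 and 298 CPM in Cd4 sgRNA cells. Its log2 fold change was 0.62 ± 0.12 (adjusted p = 0.0132, edgeR) and 0.81 ± 0.12 (adjusted p = 0.00909, edgeR).

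The 4 CDK inhibitors did not move as a block. Cdkn1b (p27), on chr6:134920401-134925525, was at 26.8 and 23.4 CPM in wild-type, 38.6 and 58.8 CPM in control sgRNA and 25.2 and 25.4 CPM in Cd4 sgRNA cells. It rose in control sgRNA cells (0.95 ± 0.21, adjusted p = 0.0210, edgeR), and in Cd4 sgRNA cells the difference was 0.01 ± 0.21 (adjusted p = 0.983, edgeR). The first value was 1.24 without control sgRNA replicate 1 and 0.61 without replicate 2. Cdkn2c (p18) rose in control sgRNA cells (0.47 ± 0.11, adjusted p = 0.0249, edgeR) and had 0.07 ± 0.11 in Cd4 sgRNA cells. Cdkn2a, which encodes p16 and p19ARF and whose transcripts are counted together, was at 144 and 133 CPM in wild-type, 61.3 and 159.6 CPM in control sgRNA and 54.2 and 49.0 CPM in Cd4 sgRNA cells. Its log2 fold change was -0.33 ± 0.40 in control sgRNA (adjusted p = 0.566, edgeR) and -1.42 ± 0.41 in Cd4 sgRNA cells (adjusted p = 0.0567, edgeR). Cdkn1a (p21) was at 7.17 and 6.31 CPM in wild-type, 4.49 and 8.11 CPM in control sgRNA and 4.0 and 3.21 CPM in Cd4 sgRNA cells, and did not pass (adjusted p = 0.784 and 0.109, edgeR). In Cdkn2a and Cdkn1a, control sgRNA replicate 1 was close to the Cd4 sgRNA libraries and replicate 2 was above wild type.

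**Figure D4:**
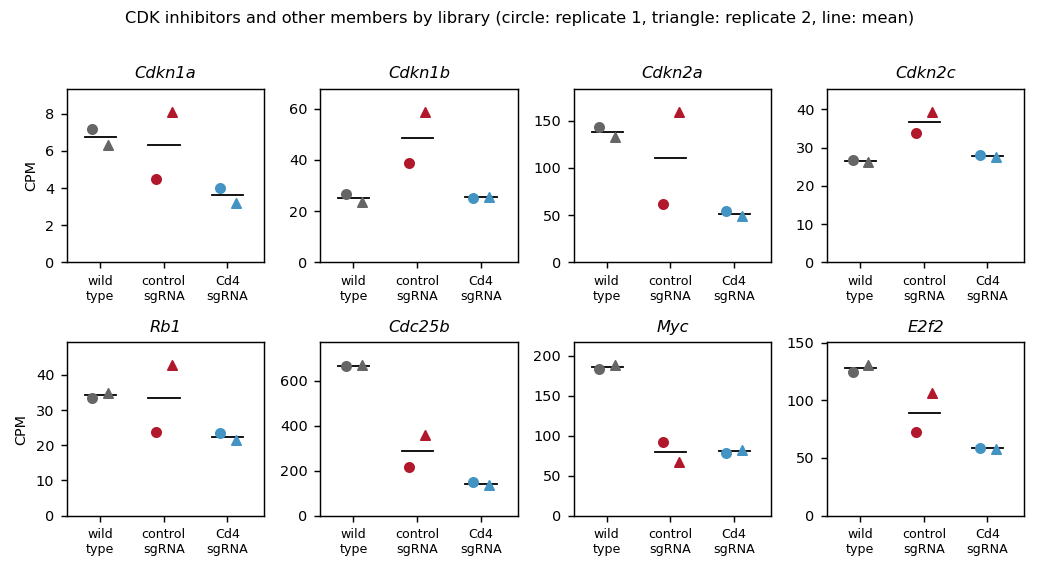
CPM (vertical axes, from 0) of 4 CDK inhibitors, Rb1, Cdc25b, Myc and E2f2 in each library, with circles for replicate 1, triangles for replicate 2 and lines for group means. The control sgRNA triangles lie above the circles in all panels but Myc, for example at 159.6 against 61.3 CPM for Cdkn2a.

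The phases were compared by their lists. Of 22 S phase and G1/S genes, 9 rose and 0 fell in control sgRNA cells, and 7 rose and 1 (E2f2) fell in Cd4 sgRNA cells. Of 19 G2 and M genes, 9 rose and 1 (Cdc25b) fell in control sgRNA cells, and 9 rose and 2 (Cdc25b and Ccnb2) fell in Cd4 sgRNA cells. The shares of all tested genes called higher and lower were 14.5% and 13.5% in control sgRNA and 9.85% and 10.7% in Cd4 sgRNA cells. The count of G2 and M genes that fell in Cd4 sgRNA cells is near that share. The median log2 fold change was 0.28 for the S phase and 0.23 for the G2 and M list in control sgRNA cells, and 0.41 and 0.30 in Cd4 sgRNA cells. In control sgRNA cells the S phase median was 0.089 without replicate 1 and 0.46 without replicate 2, and the G2 and M median 0.21 and 0.39. In single libraries, relative to the wild-type mean, the S phase list had a median of 0.39 and 0.41 with Cd4 sgRNA, 0.46 in control sgRNA replicate 1 and 0.07 in replicate 2. The G2 and M list had 0.32 and 0.28 with Cd4 sgRNA and 0.39 and 0.18 with control sgRNA. The S phase median was above the G2 and M median by 0.07 to 0.13 in both Cd4 sgRNA libraries and in control sgRNA replicate 1, and below it by 0.11 in control sgRNA replicate 2 (-0.11). The difference between the phases was not tested.

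Between the 2 control sgRNA libraries the genes of S phase and the CDK inhibitors moved in opposite directions. Given as the log2 ratio of replicate 2 to replicate 1, which has no replicate of its own and no test, the 9 licensing and PCNA genes had a median of -0.51 and 0 of 9 were higher in replicate 2, with Cdt1 at -0.01 and Mcm2 at -0.60. The S phase list as a whole had a median of -0.29, with 2 genes higher and 20 lower in replicate 2. The G2 and M list had -0.08 (6 higher and 13 lower), and all tested genes had -0.00. The CDK inhibitors had a median of 0.71, with 4 of 4 higher in replicate 2. In the other groups the same ratio ran from -0.30 to 0.17 on the log2 scale over the members without Ccnd2.

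**Figure D5:**
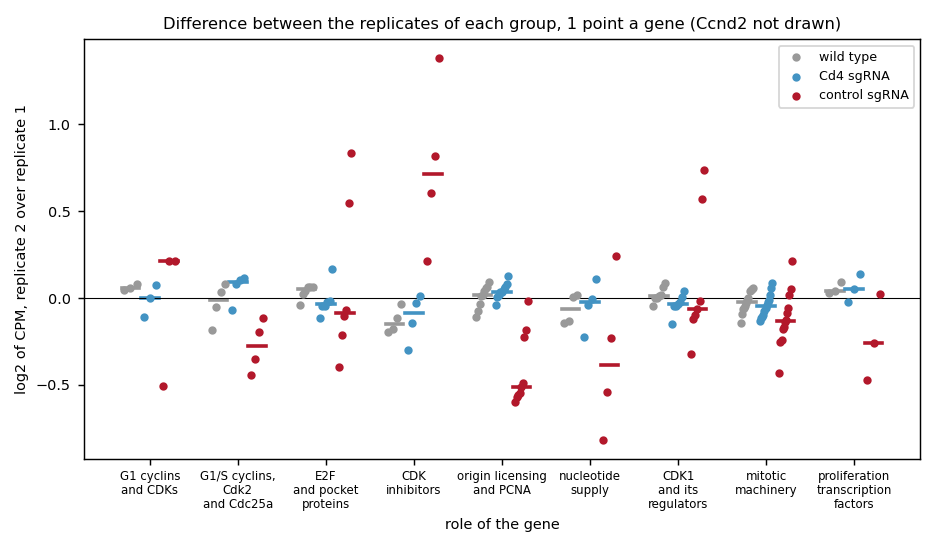
Log2 ratio of CPM between replicate 2 and replicate 1 (vertical axis) for each gene but Ccnd2, by role and by group, with bars for the medians. The wild-type and Cd4 sgRNA points stay near 0, while the control sgRNA points reach 1.38 (Cdkn2a) and -0.81 (Tyms), with a median of -0.51 for licensing genes and 0.71 for CDK inhibitors.

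The 5 members with the largest such ratios were Cdkn2a (1.38), Rb1 (0.83), Cdkn1a (0.82), Tyms (-0.81) and Cdc25b (0.74). Of these, Rb1 overlaps Lpar6 and Tyms has a named pseudogene, so reads could be shared. Rb1, the retinoblastoma gene, was at 33.4 and 34.9 CPM in wild-type, 23.9 and 42.8 CPM in control sgRNA and 23.4 and 21.6 CPM in Cd4 sgRNA cells. A ratio past 1.5-fold, a limit set after the values were seen, was reached by 5 members higher in replicate 2 (Cdkn1b besides Cdkn2a, Rb1, Cdkn1a and Cdc25b) and 2 lower (Mcm2 and Tyms). Of all tested genes, 10.9% passed that limit upwards and 4.91% downwards. Control sgRNA replicate 2 was nearer to the wild-type mean than to control sgRNA replicate 1 for 23 of the 53 genes (43.4%), and for 37.6% of all tested genes. It was the lowest of the 6 libraries for 12 members (22.6%, beside 29.0% of all tested genes), among them Mcm2, Mcm3, Mcm4, Mcm5, Mcm6, Pcna and Tyms, and the highest for 11 (20.8%, beside 27.4%), among them Mki67, Bub1, Aurka, Tk1 and all 4 CDK inhibitors. Mki67 and the licensing genes therefore differed in opposite directions between these libraries. The higher mitochondrial share (11.5% against 6.63%) and B cell marker sum (7698 against 4962 CPM) were in replicate 2 as well. Their part in these differences was not tested.

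Between Cd4 sgRNA and control sgRNA cells, 0 of the 53 genes were called in either direction by edgeR, where 0.0242% of all tested genes were called higher and 0.0483% lower. At an unadjusted p under 0.05 there were 3 higher and 14 lower members (11.3% and 13.6% of all genes). DESeq2 called 1 higher (Cdk2) and 9 lower, with 4.33% and 7.16% of all genes, and voomLmFit called 0 (0.00805% of all genes higher and 0.0483% lower). The groups did not overlap for 7 members with Cd4 sgRNA higher (29.5% of all genes) and 21 with Cd4 sgRNA lower (30.2%). The largest log2 differences were -1.10 ± 0.41 for Cdkn2a (adjusted p = 0.179, edgeR), -1.02 ± 0.23 for Cdc25b (adjusted p = 0.120, edgeR) and -0.94 ± 0.20 for Cdkn1b (adjusted p = 0.118, edgeR). Mki67 had -0.51 ± 0.11 (adjusted p = 0.119, edgeR) and Bub1 -0.56 ± 0.08 (adjusted p = 0.101, edgeR), while Myc had 0.01 ± 0.16 (adjusted p = 0.959, edgeR). A p that misses the threshold does not show that the groups were alike, and this comparison depended on the control sgRNA library used. Against control sgRNA replicate 1 alone, 2 members were called higher and 17 lower (12.1% and 12.8% of all genes), and against replicate 2 alone, 20 higher and 16 lower (30.4% and 30.9%). The S phase list had a median log2 difference of 0.11 with both control libraries and of -0.08 without replicate 2, and the G2 and M list had -0.10 with both. With each library of the 3 groups left out in turn, the G2 and M median ranged from -0.14 to -0.06.

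Cell cycle genes outside the 53 were counted on lists drawn up for this purpose, beside 14.5% of all tested genes called higher and 13.5% lower in control sgRNA cells and 9.85% and 10.7% in Cd4 sgRNA cells. Of 32 other S phase genes, 9 rose and 0 fell in control sgRNA cells, and 13 rose and 0 fell in Cd4 sgRNA cells. Among the smallest p-values were those of Gmnn, the geminin inhibitor of Cdt1 (0.73 ± 0.11 and 0.79 ± 0.12, adjusted p = 0.00806 and 0.00928, edgeR) and Usp1, a deubiquitinase, in Cd4 sgRNA cells (0.56 ± 0.10, adjusted p = 0.0157, edgeR). Of 30 genes of origin recognition, helicase and replicative polymerases, 11 rose and 1 fell in control sgRNA cells, and 12 rose and 1 fell in Cd4 sgRNA cells. Pold1, the catalytic subunit of polymerase delta, was at 169 and 183 CPM in wild-type, 307 and 355 CPM in control sgRNA and 227 and 239 CPM in Cd4 sgRNA cells, and rose in control sgRNA cells (0.91 ± 0.11, adjusted p = 0.00350, edgeR). Orc5, a subunit of the origin recognition complex, fell by 0.91 in control sgRNA cells (SE 0.12, adjusted p = 0.00443, edgeR). Pole2 (0.96 ± 0.18, adjusted p = 0.0178, edgeR) and Pole (0.42 ± 0.08, adjusted p = 0.0181, edgeR), subunits of polymerase epsilon, rose in Cd4 sgRNA cells.

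Of 42 other G2 and M genes, 17 rose and 2 fell in control sgRNA cells, and 9 rose and 3 fell in Cd4 sgRNA cells. G2e3 rose in both (1.27 ± 0.12 and 0.99 ± 0.12, adjusted p = 0.00225 and 0.00615, edgeR), Gas2l3 rose in control sgRNA cells (1.26 ± 0.12, adjusted p = 0.00196, edgeR) and Kif20b, a kinesin, in Cd4 sgRNA cells (0.79 ± 0.10, adjusted p = 0.00665, edgeR). Of 16 spindle checkpoint and kinetochore genes, 7 rose and 1 fell in control sgRNA cells, and 5 rose and 2 fell in Cd4 sgRNA cells. Incenp, the scaffold of the Aurora B complex, rose in both (0.56 and 0.61, adjusted p = 0.00839 and 0.00901, edgeR), Sgo2a, a shugoshin, rose in control sgRNA cells (0.68 ± 0.09, adjusted p = 0.00457, edgeR), and Pttg1, the gene of securin, fell by 0.56 in Cd4 sgRNA cells (SE 0.09, adjusted p = 0.0115, edgeR).

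The next 4 lists are small, and several of their counts are near or below the share of all tested genes called (14.5% higher and 13.5% lower in control sgRNA, 9.85% and 10.7% in Cd4 sgRNA cells). Of 12 other cyclins, CDKs and inhibitors tested (of 15 listed), 3 rose and 1 fell in control sgRNA cells, and 2 rose and 1 fell in Cd4 sgRNA cells. Pkmyt1, a second inhibitory kinase of CDK1, rose in both (1.06 and 0.84, adjusted p = 0.00167 and 0.00441, edgeR), as did Ccnf, cyclin F (0.66 and 0.76, adjusted p = 0.00396 and 0.00386, edgeR). Of 21 APC/C and SCF genes, 2 rose and 2 fell in control sgRNA cells, and 2 rose and 1 fell in Cd4 sgRNA cells. Anapc16, a subunit of the anaphase-promoting complex, fell by 1.20 and fell by 1.00 (adjusted p = 0.00153 and 0.00339, edgeR), and Fbxo5, its inhibitor EMI1, rose by 0.92 and 0.56 (adjusted p = 0.00267 and 0.0153, edgeR). Of 19 tested genes of the other E2F, DREAM and MYC network (of 20 listed), 2 rose and 0 fell in control sgRNA cells, and 1 rose and 1 fell in Cd4 sgRNA cells. Lin54, the MuvB subunit that binds CHR elements, rose in both (0.64 and 0.73, adjusted p = 0.0120 and 0.0118, edgeR). Mxi1, a MAX-binding repressor, rose in control sgRNA cells, with 63.1 and 118 CPM in the 2 libraries (1.07 ± 0.28, adjusted p = 0.0371, edgeR), and Mnt, another such repressor, fell by 0.84 in Cd4 sgRNA cells (SE 0.10, adjusted p = 0.00501, edgeR).

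Of 17 p53 target genes tested (of 21 listed), 3 rose and 4 fell in control sgRNA cells, and 0 rose and 5 fell in Cd4 sgRNA cells. The shares of all tested genes, in the same order, were 14.5%, 13.5%, 9.85% and 10.7%. Plk3 fell by 1.20 and fell by 0.77 (adjusted p = 0.00396 and 0.0197, edgeR), Bbc3, the gene of the death inducer PUMA, fell by 2.27 in Cd4 sgRNA cells (SE 0.42, adjusted p = 0.0180, edgeR) and Tnfrsf10b, a death receptor, rose in control sgRNA cells (0.56 ± 0.12, adjusted p = 0.0210, edgeR). Bbc3 was at 19.0 and 43.7 CPM in the control sgRNA libraries against 50.7 and 52.2 CPM in wild-type cells. In Cd4 sgRNA against control sgRNA cells 0 genes of these 8 lists were called in either direction by edgeR. Of their genes with the smallest p in that comparison, Ddit4, a stress-induced inhibitor of mTOR signalling, was at 107 and 411 CPM in the control sgRNA libraries and Ccng2, cyclin G2, at 163 and 305 CPM, with 50.3 and 41.8 CPM and 67.3 and 58.8 CPM in Cd4 sgRNA cells. Their log2 differences were -2.49 ± 0.58 (adjusted p = 0.120, edgeR) and -1.89 ± 0.28 (adjusted p = 0.104, edgeR). The other genes chosen by the same rule, Ccng1, Rpa2, Ung, Cenpf, Gas2l3, Pold1, Orc6, Mnt, Mxi1, Fbxo5, Cdc23, Sgo2a, Zw10 and Zmat3, had adjusted p-values from 0.0981 to 0.190 (edgeR).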

How the data were processed

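Polyadenylated RNA was made into libraries with a TruSeq kit and sequenced as paired-end reads. The authors mapped the reads to mm10 (GRCm38) with Rsubread, and featureCounts assigned them to Entrez genes of its inbuilt RefSeq annotation. The deposited values are raw whole counts per gene, without normalization. The strand setting and the treatment of shared reads are not given in the sources used here. The series-wide table holds identical counts and was left out. Groups came from the sample titles.

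RefSeq genes of GRCm38.p6 gave symbols and positions. Of 27179 identifiers 25275 had a symbol, 25227 stayed after mitochondrial, rRNA and similar genes were removed, and filterByExpr left 12418, which held 86.0% to 95.0% of each library's counts. Counts were scaled by TMM and tested with glmQLFit (robust, new method) and glmQLFTest of edgeR 4.0.16 in R 4.3.3, on all 6 libraries with a term per group. Tests were two-sided, with p-values adjusted by Benjamini and Hochberg over all genes and a threshold of 0.05. The study itself used voomLmFit. The SE is the log2 fold change over the root of F. List levels by library used log2 CPM with a prior count of 2, and ratios of 2 libraries log2 of CPM plus 0.25. Replicates differed by more than counting noise (chi-square per degree of freedom 6.89 to 243), so each was kept.

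The 53 genes, the lists and the tests were chosen with earlier results of these data known. Values in every library are given for the 5 genes called with the largest change per direction and comparison, the 5 with the largest ratio between the control sgRNA libraries, and Mki67, Cdk1, Ccnb1, Mcm2, Pcna, Myc, Cdkn1a, Cdkn1b and Cdkn2a. Of each further list the 2 genes with the smallest p per comparison are named, except 1 gene that is not reported here. Alternatives were voomLmFit (edgeR and limma 3.58.1), DESeq2 1.42.0, other size factors, other filters, thinning, a replicate block, fits of 2 groups and each replicate left out. The code was tested on simulated counts. DNA methylation and flow cytometry data were not analysed here.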

Additional observations from a re-analysis of the deposited data

How the results depend on the processing

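Calls depended most on which libraries set the spread. A fit of only the 2 groups compared gave 14 genes higher in control sgRNA against wild type (6.62% of all genes), and 35 higher and 11 lower in Cd4 sgRNA against wild type (31.2% and 30.5%). With each library left out in turn, control sgRNA against wild type ranged from 0 to 39 higher and 0 to 9 lower, Cd4 sgRNA against wild type from 0 to 35 higher and 0 to 11 lower, and Cd4 sgRNA against control sgRNA from 0 to 20 higher and 0 to 17 lower. DESeq2 called 8 genes lower in Cd4 sgRNA against wild type, and 1 higher and 9 lower in Cd4 sgRNA against control sgRNA. Library size alone moved the medians of Cd4 sgRNA against wild type to 0.34 (G2 and M) and 0.45 (S phase). With libraries left out, these medians ranged from 0.28 to 0.36 and 0.39 to 0.45, the G2 and M median of control sgRNA against wild type from 0.21 to 0.39, its S phase median from 0.089 to 0.46 (lowest without control sgRNA replicate 1, highest without replicate 2), and the S phase median of Cd4 sgRNA against control sgRNA from -0.079 to 0.26, its lowest and only negative value being without control sgRNA replicate 2. Signs turned for members that had not passed, and ranges are given for the members chosen for values in every library. Over the fits with a library left out, log2 fold changes in control sgRNA against wild type ranged as follows: Mcm2 -0.16 to 0.42, Pcna -0.11 to 0.35, Cdkn1a -0.61 to 0.26, Cdkn2a -1.18 to 0.23, Rb1 -0.51 to 0.35 and Tyms -0.33 to 0.47. Their sign turned without control sgRNA replicate 1, and for Cdkn1a and Rb1 also without 1 of the wild-type libraries. Among the other members, the sign also turned without control sgRNA replicate 1 for Cdk4 (-0.21), Mcm3 (-0.06), Mcm4 (-0.06), Mcm5 (-0.20) and Mcm6 (-0.035). Kif20a turned to 0.10 without control sgRNA replicate 2. Rb1 was 0.0085 with library size alone. In Cd4 sgRNA against wild type Cdkn1b ranged from -0.055 to 0.14 and was -0.0023 with voomLmFit, -0.0044 with the 2 groups alone and -0.0017 with the replicate block. In Cd4 sgRNA against control sgRNA the ranges were Mcm2 -0.010 to 0.60, Pcna -0.068 to 0.43, Myc -0.20 to 0.28, Rrm2 -0.033 to 0.52 and Kif11 -0.16 to 0.28. The sign of these genes turned without control sgRNA replicate 2, and for Myc also without Cd4 sgRNA replicate 2 and, at -0.0062, under the stricter filter. Myc and Kif11 were at -0.20 and -0.16 without control sgRNA replicate 2, and both at 0.28 without replicate 1. The cause was not tested.

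The deviations of same-numbered libraries correlated at -0.0352 (wild type and control sgRNA), 0.0138 (wild type and Cd4 sgRNA) and -0.137 (control and Cd4 sgRNA). With 2 libraries a group, these values cannot show whether same-numbered libraries were prepared together. With the replicate block, 22 of the 26 calls in control sgRNA and 19 of the 23 in Cd4 sgRNA against wild type remained (Cdk6, Mcm7, Plk1 and Tk1 were lost in the first, and Bub1, Cdc25a, Mcm7 and Mki67, at adjusted p = 0.0793, 0.0685, 0.0587 and 0.0773, in the second), and 0 arose between the sgRNA groups. The legacy quasi-likelihood method, chosen after seeing the data, gave 26 and 25 calls. In the fits that leave out a library, the lone library is assumed to vary like the other groups. Depth limits Ccnd2, with 1 count in wild type, and 2 replicates a group limit all results.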
